A study of Gossypium hirsutum with 6 samples.

Results

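The genes described here encode proteins that work beside cellulose synthase without making cellulose themselves. They are the COBRA and COBRA-like proteins, the chitinase-like proteins, and the proteins named CELLULOSE SYNTHASE INTERACTIVE (CSI). A gene was a member when its Swiss-Prot description in the authors' table held COBRA, chitinase-like, cellulose synthase interactive or companion of cellulose synthase. Of 73622 genes in the table, 52 were members: 37 COBRA or COBRA-like, 6 chitinase-like and 9 CSI genes. The description companion of cellulose synthase matched 0 genes. The members lay on A chromosomes (25 genes), D chromosomes (26 genes) and an unplaced contig (1 gene), where A and D are the subgenomes of upland cotton.

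The samples were fibers of upland cotton (Gossypium hirsutum, strain 63), the single cells that grow out of the seed coat and yield cotton lint. Fibers were taken 15 days after flowering (15DPA) and 5 days after flowering (5DPA), with 3 libraries of each stage that the labels call biological replicates. No line, treatment or genotype differed between the stages. The labels do not say whether a library came from 1 plant or from pooled plants.

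Cellulose is spun into the wall by complexes of CesA proteins that move in the plasma membrane along cortical microtubules. In Arabidopsis, CSI1 ties these complexes to the microtubules, and CSI3 is a relative with an overlapping role. COBRA is an Arabidopsis protein held at the cell surface by a lipid anchor, and mutants in it lose the ordered direction of microfibrils and of cell expansion. Chitinase-like protein 1 of Arabidopsis has the fold of a chitinase but is known for its part in cellulose assembly in growing walls. Cotton fibers first elongate with a thin primary wall and later lay down a thick layer of nearly pure cellulose. These roles come from Arabidopsis, and the cotton genes carry the names only through sequence likeness.

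The libraries held 15.61 to 16.94 M counts and between 50146 and 52303 genes with reads. The fiber label was checked on 221 genes of fiber proteins (Protein E6, A-type expansins, fasciclin-like arabinogalactan proteins and lipid-transfer proteins), which summed to between 51162 and 68808 FPKM at 15DPA, against between 30024 and 41853 FPKM at 5DPA, with 25 of 99 tested called higher and 20 lower. Among them the 4 genes of Protein E6, an abundant cotton fiber protein, summed to between 12856 and 19617 FPKM (reads per kilobase and per M counts) at 15DPA, against between 8270 and 11751 FPKM at 5DPA, with 1 called higher and 1 lower. Of 118 tested markers of dividing cells (core histones and B-type cyclins), 82 were called lower at 15DPA, and the list summed to between 1762 and 2637 FPKM at 15DPA, against between 6726 and 9963 FPKM at 5DPA. The 57 markers of green tissue summed to between 25.6 and 46.8 FPKM at 15DPA, against between 74.0 and 79.8 FPKM at 5DPA, with 6 of 15 tested called lower. The 33 embryo and seed markers summed to between 12.4 and 16.7 FPKM at 15DPA, against between 5.61 and 8.11 FPKM at 5DPA. Of these 33, 18 had no read and 29 were too low to be tested, and 4 of the 4 tested were called higher. Of all genes tested, 13.0% were called higher and 10.4% lower. The part of these markers in the results below was not tested. In such bulk samples, fewer cells of a type and less RNA per cell cannot be told apart.

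Genes with a mean of at least 1 FPKM over the 6 libraries were tested, and 21 of the 52 members met this limit: 10 COBRA or COBRA-like, 2 chitinase-like and all 9 CSI genes. Each of the 21 had a mean of at least 1 FPKM at both stages, so none was tested through a single stage. By edgeR's quasi-likelihood test 6 of the 21 rose at 15DPA and 0 fell (Benjamini-Hochberg adjusted p under 0.05 over the 40054 genes tested). Across the genes tested 13.0% were called higher and 10.4% lower, or 23.4% in either direction. A rise of at least 2-fold was called for 2 members, against 6.12% of the genes tested. In FPKM, which carries no TMM scaling, every 15DPA library lay above every 5DPA library for 6 members and below for 1, against 12.9% and 37.3% of the genes tested. At an unadjusted p under 0.05 in edgeR, 9 members were higher and 1 was lower. No share of all genes is given for that threshold. DESeq2 called 9 members higher and 0 lower, beside 6432 higher and 4855 lower of the 40054 genes tested. The median log2 change was 0.31 over the 21 members and −0.04 over the genes tested. Without TMM scaling, with library totals alone, these medians were 0.01 and −0.33, so the median of all genes moved by −0.29 and the members moved with it. With a library left out the count of members that rose was 1 when 15DPA replicate 1 or 5DPA replicate 2 was absent, 2 when 5DPA replicate 1 was, and 4 when 5DPA replicate 3 was. It was 6 in the absence of 15DPA replicate 3 and 8 in that of 15DPA replicate 2, where 1 also fell.

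**Figure D1:**
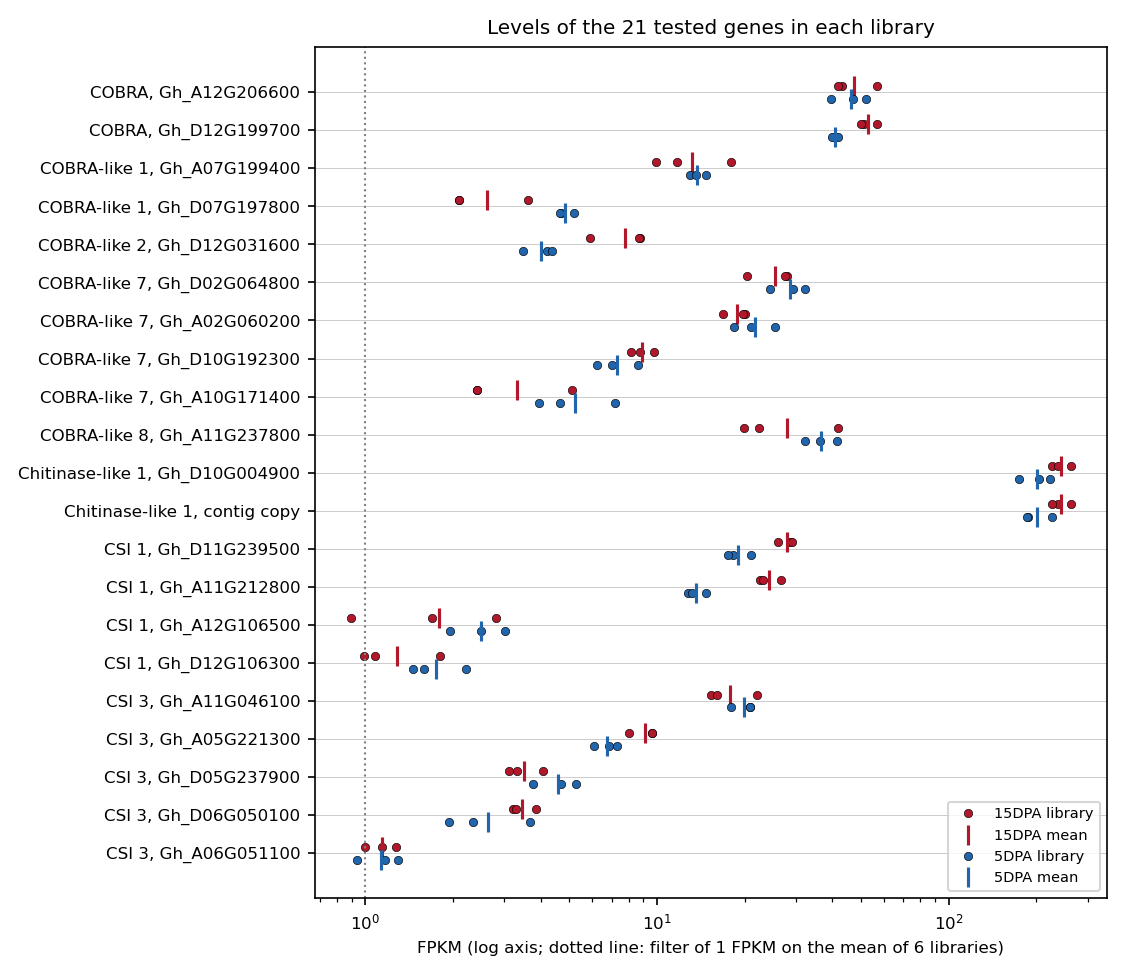
FPKM of the 21 tested genes in each library on a log axis, with 15DPA libraries in red above 5DPA libraries in blue and a vertical tick at each stage mean. The chitinase-like 1 genes stand near 222 FPKM, the COBRA genes near 46.8 FPKM, and the lowest CSI genes near the limit of 1 FPKM.

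The chitinase-like 1 genes were the most abundant members by a wide margin and did not pass the test. Gh_D10G004900, on D10 from 453528 to 456087, had 263, 227 and 237 FPKM in the 15DPA libraries (replicates 1, 2 and 3), against 205, 174 and 223 FPKM in the 5DPA libraries. The stage ranges lay close together without overlapping, with 15DPA above. The other gene of this description, Gh_Contig01033_ERROPOS3049310+G005200, on the unplaced contig from 351505 to 353974, had 262, 238 and 227 FPKM at 15DPA, against 188, 186 and 227 FPKM at 5DPA. Its lowest 15DPA library and its highest 5DPA library were level. The log2 changes were 0.57 ± 0.19 and 0.57 ± 0.18 (SE), with edgeR adjusted p = 0.0695 and 0.0583, and their 95% intervals ran from 0.12 to 1.01 and from 0.15 to 0.99. DESeq2 called both higher (adjusted p = 0.0141 and 0.00824), and edgeR did so without 15DPA replicate 2 (0.0422 and 0.0443). These genes alone made up 56.9 to 63.9% of the FPKM summed over all members in each library. They are so alike in level and name that reads may have been shared between them by the authors' counting.

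The genes described as chitinase-like 2, whose Arabidopsis counterpart is known from thickening walls, were close to silent in comparison. None of the 4 reached the limit for testing. Gh_D09G075600, the member nearest below it, had 0.613, 2.22 and 0.246 FPKM at 15DPA, against 0.934, 0.924 and 0.698 FPKM at 5DPA. Gh_A09G082000 had 0.145, 1.48 and 0.704 FPKM at 15DPA, against 0.654, 0.615 and 0.667 FPKM at 5DPA. In both genes 15DPA replicate 2 stood above every other library, with 49 and 32 reads, while the other 15DPA libraries held 3 to 14 reads. The remaining genes of this description, Gh_A10G173500 and Gh_D10G194600, had 10 and 4 reads over the 6 libraries together.

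Of the pair described as Protein COBRA, the gene on D12 rose and the gene on A12 did not pass. Gh_D12G199700, on D12 from 53180713 to 53184786, had 56.8, 51.3 and 50.3 FPKM at 15DPA, against 40.7, 39.9 and 41.8 FPKM at 5DPA. All 15DPA libraries lay above all 5DPA libraries. EdgeR gave it a log2 change of 0.67 ± 0.15 (SE; adjusted p = 0.0191). Gh_A12G206600, on A12 from 95611997 to 95616008, had 43.2, 41.9 and 56.8 FPKM at 15DPA, against 52.2, 39.7 and 47.2 FPKM at 5DPA. Its stage ranges overlapped, and its log2 change of 0.33 ± 0.21 (SE; adjusted p = 0.27) had a 95% interval from −0.15 to 0.81. That interval takes in the change of the D12 gene, and a difference between the pair was not tested. The D12 gene held 1.14 ± 0.226 times the FPKM of the A12 gene at 15DPA and 0.889 ± 0.112 times at 5DPA (SD, n = 3 each), with overlapping ranges. The call for Gh_D12G199700 was lost when 15DPA replicate 1 or any single 5DPA library was left out (adjusted p up to 0.0821), and by limma on log2(FPKM + 1) (0.0777).

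Each COBRA gene had a COBRA-like 4 gene as its next neighbour on the opposite strand, tail to tail, and these neighbours were close to silent. On D12 the gap was 161 bases, and the neighbour Gh_D12G199800 averaged 0.551 FPKM, against 46.8 FPKM for the COBRA gene. On A12 the gap was 623 bases, and the neighbour Gh_A12G206700 averaged 0.052 FPKM. The arrangement was not particular to the COBRA pair. On D11 the COBRA-like 1 gene Gh_D11G170200 and the COBRA-like 4 gene Gh_D11G170300 also lay tail to tail, 674 bases apart, and averaged 0.0769 and 0.249 FPKM. COBRA-like 4 is the Arabidopsis member known for cellulose of secondary walls. The use of strand in the authors' counting is not given in the sources used here, so reads that ran past the end of the D12 COBRA gene could have been counted on its neighbour.

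The COBRA-like 2 gene on D12 showed the largest log2 change among the 21 tested members. Gh_D12G031600, on D12 from 4247658 to 4250451, had 8.74, 8.67 and 5.92 FPKM at 15DPA, against 3.48, 4.21 and 4.38 FPKM at 5DPA. All 15DPA libraries lay above all 5DPA libraries, with 15DPA replicate 3 nearest to them. EdgeR gave it a log2 change of 1.24 ± 0.22 (SE; adjusted p = 0.0109), a 2.36-fold rise. It narrowly missed the threshold without 15DPA replicate 1 or 5DPA replicate 2 (adjusted p up to 0.0501). The only other gene of this description, Gh_A12G042800 on A12, had no read in any library. The Swiss-Prot name of both comes from rice, and that of the other 50 members from Arabidopsis.

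The COBRA-like 1 genes did not pass. Gh_D07G197800, on D07 from 47542080 to 47547495, had 2.10, 3.63 and 2.09 FPKM at 15DPA, against 4.69, 4.64 and 5.18 FPKM at 5DPA. All its 15DPA libraries lay below all its 5DPA libraries, and it was the only tested member with that order. EdgeR gave it a log2 change of −0.62 ± 0.21 (SE; adjusted p = 0.0719), and it was called lower without 15DPA replicate 2 (0.0175), with library totals alone (0.0374) and by limma on log2(FPKM + 1) (0.0343). Gh_A07G199400, on A07 from 81812394 to 81816114, had 9.95, 11.7 and 18.0 FPKM at 15DPA, against 14.7, 13.0 and 13.6 FPKM at 5DPA. The 15DPA libraries of this gene enclosed the 5DPA libraries, and edgeR gave it a log2 change of 0.24 ± 0.24 (SE; adjusted p = 0.483, 95% interval −0.32 to 0.81). Its sign was not stable: the change was −0.06 with library totals alone, −0.09 and −0.10 by limma with pseudocounts of 1 and 0.1, and −0.08 without 15DPA replicate 3. The third gene of this description, Gh_D11G170200, had at most 5 reads in a library.

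**Figure D2:**
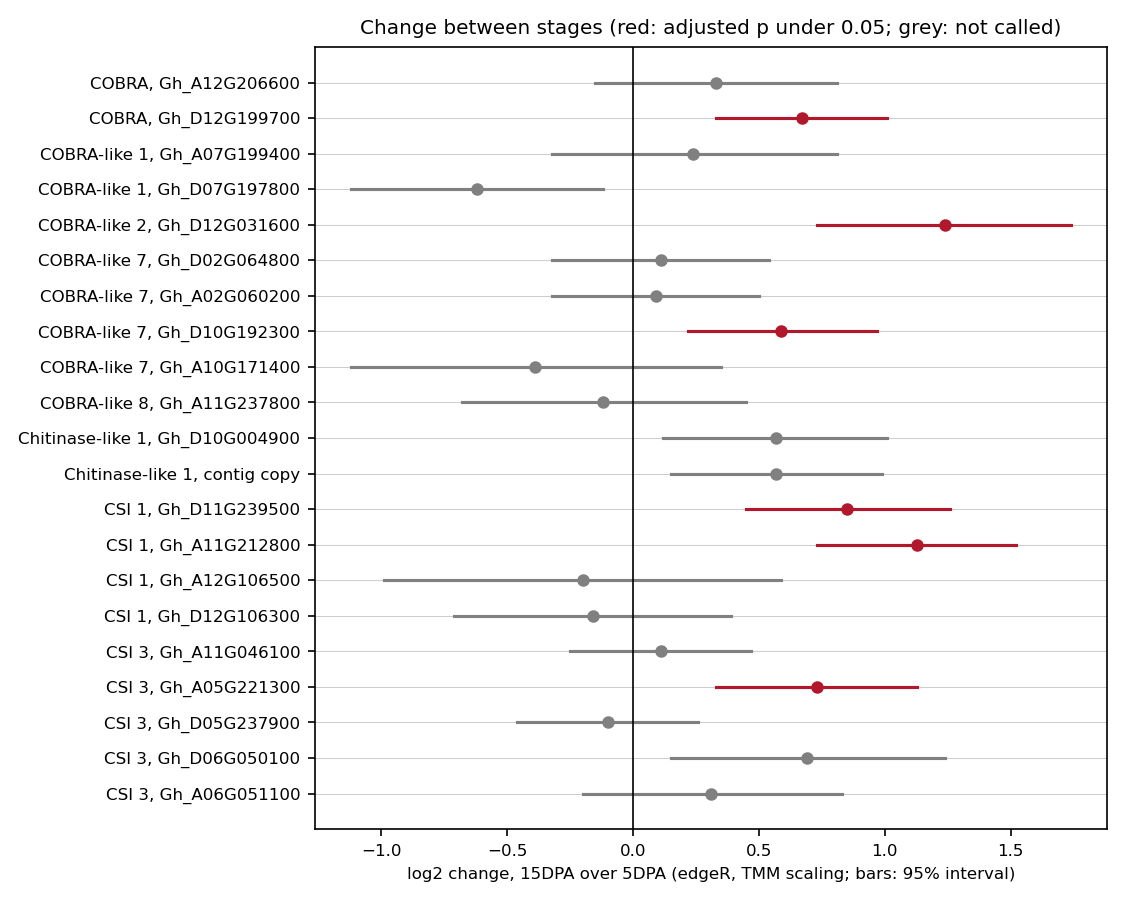
Log2 change of each of the 21 tested genes, 15DPA over 5DPA, from edgeR with TMM scaling, with bars for the 95% interval; genes called at adjusted p under 0.05 are red and the others grey. The 6 red genes lie between 0.59 and 1.24, and 15 of the 21 points lie above 0.

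COBRA-like 7 belongs to the branch of the Arabidopsis family with an extended front part of the protein. Of the 4 tested genes with this description, 1 rose, against 13.0% of all genes tested. Gh_D10G192300, on D10 from 50317090 to 50320035, had 9.77, 8.76 and 8.18 FPKM at 15DPA, against 7.04, 8.59 and 6.22 FPKM at 5DPA. The FPKM ranges overlapped, because 5DPA replicate 2 lay between the 15DPA libraries, while with TMM scaling edgeR gave it a log2 change of 0.59 ± 0.16 (SE; adjusted p = 0.0365). Of the 6 calls it held in the fewest alternatives, 4 of 14, and it was lost with library totals alone (log2 change 0.29, adjusted p = 0.222) and on leaving out 15DPA replicate 1 or any single 5DPA library (up to 0.141). Gh_A10G171400 on A10, with the same description, had 2.42, 5.12 and 2.41 FPKM at 15DPA, against 3.94, 7.16 and 4.67 FPKM at 5DPA. It missed the threshold (log2 change −0.39 ± 0.32 SE, adjusted p by edgeR = 0.39). It was high in 15DPA replicate 2 and in 5DPA replicate 2 within each stage.

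The more abundant pair of COBRA-like 7 genes, on D02 and A02, did not pass. Gh_D02G064800, on D02 from 7596662 to 7599387, had 28.0, 27.6 and 20.4 FPKM at 15DPA, against 29.2, 24.5 and 32.1 FPKM at 5DPA. Gh_A02G060200, on A02 from 7789575 to 7792374, had 20.1, 19.8 and 16.8 FPKM at 15DPA, against 21.1, 18.4 and 25.5 FPKM at 5DPA. The ranges overlapped in both genes, and replicate 3 was lowest at 15DPA and highest at 5DPA. Their log2 changes were 0.11 ± 0.18 and 0.09 ± 0.18 (SE; adjusted p = 0.68 and 0.724), with 95% intervals from −0.32 to 0.54 and from −0.32 to 0.50, and both turned negative with library totals alone (−0.18 and −0.20). The other 2 of the 6 COBRA-like 7 genes, Gh_A11G119000 and Gh_D11G121200, averaged 0.134 and 0.119 FPKM.

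The gene described as COBRA-like 8, Gh_A11G237800, on A11 from 63944296 to 63947019, had 19.9, 41.7 and 22.4 FPKM at 15DPA, against 41.4, 36.3 and 32.1 FPKM at 5DPA. Replicate 2 of 15DPA was level with the highest 5DPA library, and the other 15DPA libraries were the lowest. It did not pass (log2 change −0.12 ± 0.24 SE, adjusted p by edgeR = 0.747, 95% interval −0.68 to 0.45). Its gene model is 792 bases long and its NR description names an uncharacterized protein, so its place in the family rests on the Swiss-Prot hit.

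All 9 CSI genes were expressed above the limit for testing, and the genes described as CSI1 on A11 and D11 were higher at 15DPA. Of the 9, 3 rose and 0 fell, against 13.0% and 10.4% of all genes tested. At an unadjusted p under 0.05 in edgeR there were 4, all higher, with no share of all genes given for that threshold. DESeq2 called 4 higher, beside 6432 of the 40054 genes tested. Gh_A11G212800, described as CSI1, on A11 from 39820180 to 39831185, had 26.7, 22.6 and 23.2 FPKM at 15DPA, against 12.8, 13.2 and 14.8 FPKM at 5DPA. All 15DPA libraries stood well above all 5DPA libraries. EdgeR gave it a log2 change of 1.13 ± 0.17 (SE; adjusted p = 0.00751), a 2.18-fold rise. It passed in each of the 14 alternatives tried, with each library left out in turn among them (adjusted p up to 0.0413), and was the only member to do so. Gh_D11G239500, also described as CSI1, on D11 from 38150316 to 38161189, had 28.6, 26.1 and 29.0 FPKM at 15DPA, against 18.3, 17.6 and 21.0 FPKM at 5DPA. Its stage ranges did not overlap either, and it rose by 0.85 ± 0.17 on the log2 scale (SE; adjusted p = 0.0158). Leaving out 15DPA replicate 1, 5DPA replicate 1 or 5DPA replicate 2 ended that call (adjusted p up to 0.0715).

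The other CSI1 genes, on A12 and D12, were about an order of magnitude lower per length and did not pass. Gh_A12G106500 had 1.69, 2.80 and 0.894 FPKM at 15DPA, against 2.50, 3.02 and 1.95 FPKM at 5DPA. Gh_D12G106300 had 0.988, 1.80 and 1.08 FPKM at 15DPA, against 1.59, 2.21 and 1.46 FPKM at 5DPA. In both, replicate 2 was the highest library of each stage and the stage ranges overlapped. Their log2 changes were −0.20 ± 0.34 and −0.16 ± 0.24 (SE; adjusted p = 0.691 and 0.646). The A11 and D11 genes together held 20.7, 10.6 and 26.5 times the FPKM of the A12 and D12 genes in the 15DPA libraries, against 7.60, 5.91 and 10.5 times in the 5DPA libraries. This ratio uses no scaling between libraries; its lowest 15DPA value and highest 5DPA value nearly met, and the groups of genes were set against each other after their values were seen, so it is given without a test.

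Of 5 genes described as CSI3, 1 rose, against 13.0% of all genes tested. Gh_A05G221300, on A05 from 24174794 to 24183971, had 9.66, 8.01 and 9.59 FPKM at 15DPA, against 6.09, 6.88 and 7.31 FPKM at 5DPA, without overlap. EdgeR gave it a log2 change of 0.73 ± 0.17 (SE; adjusted p = 0.0241), a call that ended on leaving out 15DPA replicate 1, 5DPA replicate 1 or 5DPA replicate 2 (adjusted p up to 0.0954) with library totals alone (0.0538) and by limma on log2(FPKM + 1) (0.0933). Gh_D05G237900, on D05 from 21715087 to 21724296, had 3.11, 4.07 and 3.32 FPKM at 15DPA, against 3.77, 5.28 and 4.71 FPKM at 5DPA. Its ranges overlapped, and edgeR gave it a log2 change of −0.10 ± 0.15 (SE; adjusted p = 0.651, 95% interval −0.46 to 0.26). The A05 gene held 3.10, 1.97 and 2.89 times the FPKM of the D05 gene at 15DPA, against 1.62, 1.30 and 1.55 times at 5DPA. The ratio was higher in every 15DPA library and is given as a description, without a test.

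The remaining CSI3 genes did not pass. Gh_D06G050100 on D06 had 3.85, 3.22 and 3.29 FPKM at 15DPA, against 1.94, 3.66 and 2.34 FPKM at 5DPA, and 5DPA replicate 2 lay among the 15DPA libraries. EdgeR gave it a log2 change of 0.69 ± 0.24 (SE; adjusted p = 0.0695), and DESeq2 called it higher (adjusted p = 0.0363). Gh_A06G051100 on A06, the lowest of the tested members, had 1.14, 1.00 and 1.28 FPKM at 15DPA, against 0.939, 1.30 and 1.17 FPKM at 5DPA, with overlapping ranges (log2 change 0.31 ± 0.22 SE, adjusted p by edgeR = 0.32). Gh_A11G046100 on A11 had 15.3, 22.0 and 16.1 FPKM at 15DPA, against 20.9, 18.0 and 20.9 FPKM at 5DPA (log2 change 0.11 ± 0.15 SE, adjusted p by edgeR = 0.615). It differs from the rest in structure: its model of 1959 bases fills its whole span, with no intron, whereas the other CSI genes have models of 6345 to 8176 bases. Its GO term also differs from that of the other CSI genes that carry one. Its place among the CSI genes rests on the Swiss-Prot hit. With a mean of 18.8 FPKM it was the most abundant gene described as CSI3, and it is included in the CSI counts and sums given here.

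The silent members were spread unevenly over the descriptions. None of the 23 genes described as COBRA-like 4, 6 or 10 reached the limit for testing, and 8 of them had no read in any library. COBRA-like 10 is known from Arabidopsis pollen tubes. The highest of the 23 was Gh_A06G172300, described as COBRA-like 10, with 1.73, 0.475 and 0.258 FPKM at 15DPA, against 0.419, 0.363 and 0.183 FPKM at 5DPA, a level that 15DPA replicate 1 carried with 56 reads. Over all 31 members below the limit, 9 had no read, 18 had at most 10 reads in the 6 libraries together, and the highest value in any library was 2.22 FPKM. At these depths 3 reads, which a count of 0 allows, are worth 0.177 to 0.192 FPKM on a model of 1 kilobase, from counting error alone. A count of 0 in a single library therefore does not exclude expression up to about that level on such a model. Over the 6 libraries together, and on longer models, the floor is lower. Some members with reads averaged less than the floor of a single library.

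Summed by kind, the COBRA and COBRA-like genes were level between the stages, while the sums of the other kinds were higher at 15DPA. The COBRA and COBRA-like genes summed to 211 ± 11.2 FPKM in the 15DPA libraries, against 212 ± 10.8 FPKM in the 5DPA libraries (mean ± SD, n = 3). The CSI genes summed to 90.1 ± 2.05 FPKM in the 15DPA libraries, against 71.9 ± 3.47 FPKM in the 5DPA libraries, with every 15DPA library above every 5DPA library. The chitinase-like genes summed to 486 ± 34.4 FPKM in the 15DPA libraries, against 403 ± 45.3 FPKM in the 5DPA libraries. Here too every 15DPA library lay above every 5DPA library, the nearest being 464 and 452 FPKM. These sums carry no TMM scaling and are given without a test.

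Set against the primary wall CesA genes of the same library, the kinds fell into different patterns. The chitinase-like 1 pair held 1.05 ± 0.0624 times the CesA sum at 15DPA and 1.09 ± 0.163 times at 5DPA (SD, n = 3 each), and the COBRA pair 0.219 ± 0.0276 and 0.237 ± 0.0316 times, with overlapping ranges in both. The CSI1 genes on A11 and D11 held 0.116, 0.103 and 0.122 times the CesA sum at 15DPA, against 0.0884, 0.0785 and 0.0986 times at 5DPA. They were higher in each 15DPA library. The CSI1 genes on A12 and D12 held 0.00665 ± 0.00272 times at 15DPA and 0.0114 ± 0.00195 times at 5DPA (SD, n = 3 each), with overlapping ranges. COBRA-like 7 held 0.126, 0.130 and 0.112 times at 15DPA, against 0.176, 0.150 and 0.189 times at 5DPA, so its ratio was lower in each 15DPA library. Its own sums overlapped, with 60.4, 61.5 and 48.0 FPKM at 15DPA, against 61.7, 59.1 and 68.7 FPKM at 5DPA. These groupings were also chosen after the values were seen and were not tested.

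**Figure D3:**
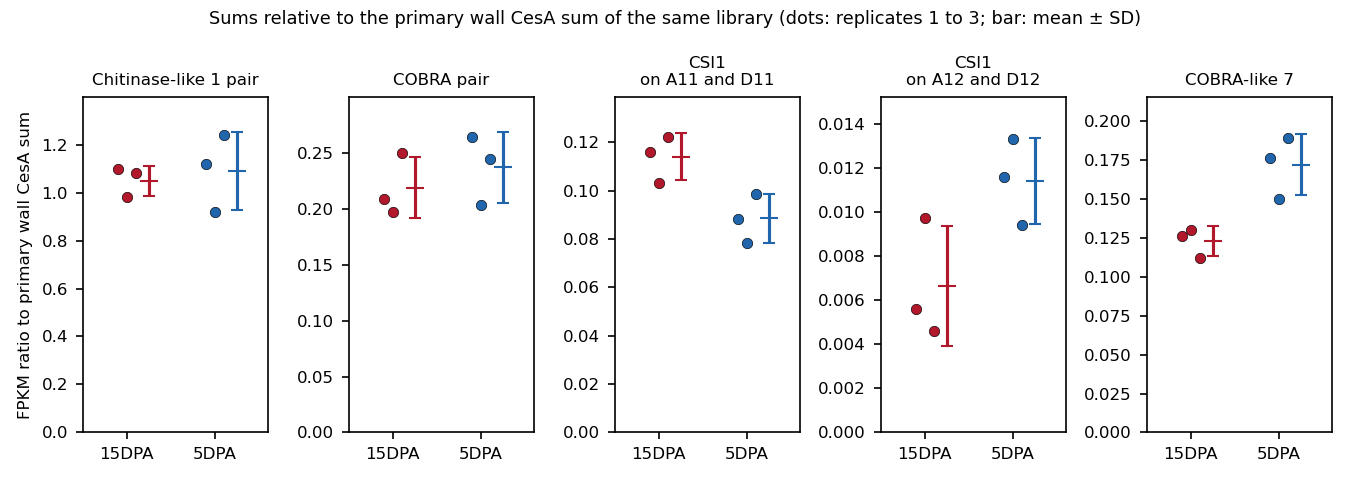
FPKM sums of 5 groups of genes divided by the primary wall CesA sum of the same library, with a dot for each library, replicates 1 to 3 from left to right, and a bar for mean ± SD; axes start at 0. The CSI1 genes on A11 and D11 lie higher at 15DPA and COBRA-like 7 lies lower, while the chitinase-like 1 pair, the COBRA pair and the CSI1 genes on A12 and D12 overlap, the last with a lower mean at 15DPA. The CesA sum was itself higher in each 15DPA library, and the COBRA-like 7 sums before division overlapped.

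Other genes of cellulose synthesis gave the setting for these values. The counts in this paragraph stand beside 13.0% of all genes tested called higher and 10.4% called lower. Of 20 tested primary wall CesA genes, 10 rose and 0 fell, with a median log2 change of 0.51, against −0.04 over all genes tested. The most abundant were the CesA3 genes Gh_A08G167200, with 75.6 ± 6.79 FPKM in 15DPA libraries and 60.6 ± 4.22 in 5DPA libraries (edgeR adjusted p = 0.0302), and Gh_D08G165700, with 69.7 ± 2.73 FPKM at 15DPA, against 54.6 ± 2.24 FPKM at 5DPA (0.0205). Of 6 tested genes described as endoglucanase 10 or 25, 4 rose and 0 fell. This list was meant for membrane-bound enzymes like Arabidopsis KORRIGAN, but whether each gene encodes one was not checked. Gh_A06G125000 and Gh_D06G137300, both described as endoglucanase 25, rose by 0.81 ± 0.20 and 0.72 ± 0.17 on the log2 scale (SE; adjusted p = 0.028 and 0.0246). Of 8 tested genes described as STELLO, Golgi proteins that help to assemble CesA complexes in Arabidopsis, or as KOBITO, 2 rose and 0 fell; the most abundant, Gh_A13G014800 and Gh_D13G014500, both KOBITO 1, did not pass (edgeR adjusted p = 0.077 and 0.436).

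The 12 secondary wall CesA genes summed to 6.17 ± 1.02 FPKM at 15DPA, level with 6.17 ± 0.299 FPKM at 5DPA. These sums carry no TMM scaling, and with library totals alone the median log2 change of all genes tested was −0.33. Of the 3 tested, 0 were called by edgeR or DESeq2, with 1 at an unadjusted p under 0.05 in edgeR. The most abundant were the CesA4 genes Gh_D08G049700 and Gh_A08G054700 (edgeR adjusted p = 0.0557 and 0.72). In FPKM, all 15DPA libraries lay above all 5DPA libraries for Gh_D08G049700 and below them for Gh_A08G054700. The genes described as COBRA-like 4 and chitinase-like 2, named after relatives known from secondary walls, each averaged below 1 FPKM over the 6 libraries. The edgeR counts from all 6 libraries in this paragraph stand beside 13.0% of all genes tested called higher and 10.4% called lower. Of 9 tested sucrose synthase genes, which feed cellulose synthesis with UDP-glucose, 1 rose and 3 fell, with a median log2 change of −1.04. The most abundant, Gh_D05G037800 and Gh_A05G028400, had log2 changes of −1.16 ± 0.22 and −0.50 ± 0.20 (SE; edgeR adjusted p = 0.0125 and 0.107). The chitinases whose description lacks "-like", a class mostly known from defence, comprised 61 genes of which 12 were tested, 1 rose and 1 fell. They summed to 87.3 ± 20.6 FPKM at 15DPA, against 136 ± 3.39 FPKM at 5DPA, below the chitinase-like genes at both stages. The most abundant of them, Gh_D12G127800 (chitinase domain-containing protein 1, a name taken from rat) and Gh_A03G238200 (endochitinase 1), did not pass (edgeR adjusted p = 0.143 and 0.114). Of the primary wall CesA genes 1 rose when 15DPA replicate 1 or 5DPA replicate 2 was absent, 3 when 5DPA replicate 1 was and 5 when 5DPA replicate 3 was. In the same fits 1, 2 and 3 of the endoglucanase genes rose. Calls over all genes tested fell too, from 5206 higher to 1498 without 15DPA replicate 1 and to 1491 without 5DPA replicate 2. Both named CesA3 genes and Gh_A06G125000 lost their calls without 15DPA replicate 1 or any single 5DPA library (adjusted p up to 0.118), Gh_D06G137300 lost its call without any of those except 5DPA replicate 3 (at most 0.0945), and Gh_D05G037800 without 15DPA replicate 1 (0.0675). In the absence of any library other than 15DPA replicate 2, 0 of the STELLO and KOBITO genes rose.

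Among the 3 libraries of 15DPA, replicate 2 lay nearest to the 5DPA mean for 13 of the 21 tested members, replicate 1 for 4 and replicate 3 for 4. Among the 6 members that rose it was replicate 2 for 3 and replicate 3 for 3. Replicate 2 was the nearest for 54.7% of all genes tested, and the part of that library in the members' values was not tested. Leaving replicate 2 out raised the count of members that rose to 8, with both chitinase-like 1 genes added, and brought the COBRA-like 1 gene Gh_D07G197800 to a call in the lower direction. Over all genes tested it raised the calls from 5206 to 6039 higher and from 4151 to 5395 lower, so the gain was not particular to the members.

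**Figure D4:**
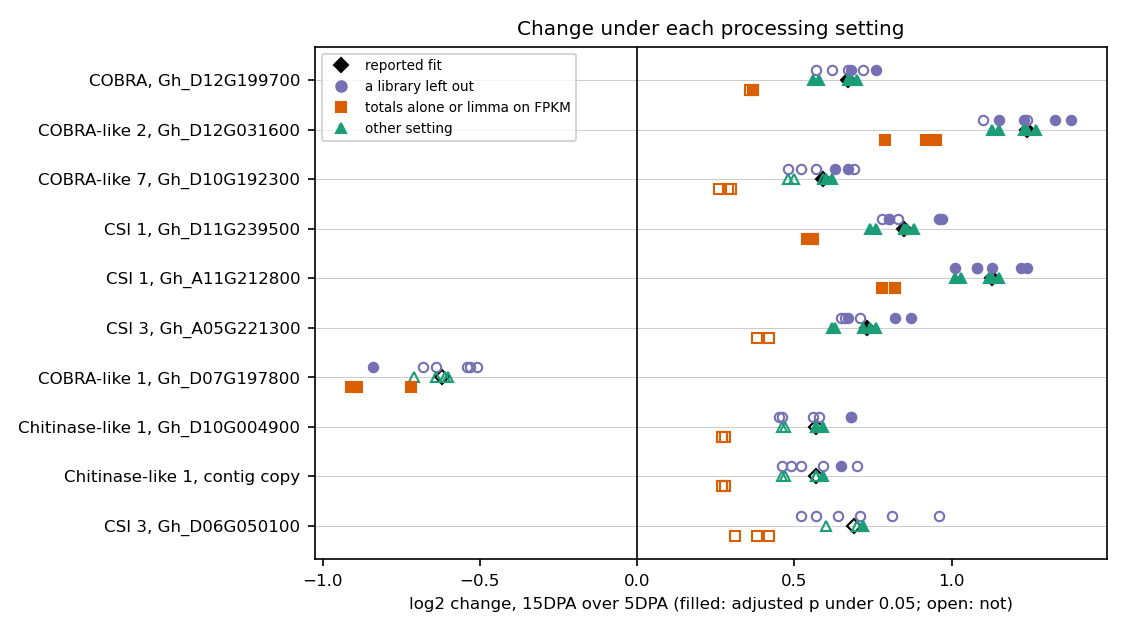
Log2 change of 10 genes, 15DPA over 5DPA, under each processing setting; filled symbols mark adjusted p under 0.05, black diamonds the reported fit, circles fits with a library left out, squares fits without scaling beyond library totals, and triangles the other settings. Gh_A11G212800 is filled throughout, and the squares of every gene lie to the left of its diamond.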

How the data were processed

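Poly(A) RNA of 6 fiber libraries was sequenced as paired ends, per the labels' protocols. The deposited table gives whole-number read counts per gene, not normalized, and FPKM values, per the file headers. The deposited FPKM equals the count per kilobase of gene model and per M counts of the library, which was checked for each gene (largest gap 0.000692%). HISAT and StringTie appear, with no version, in the submitters' processing notes. Build, annotation, counting rules and strand handling were not given in the sources used here, so coordinates are as the file gives them. Reads of near-identical A and D copies may have been split between them. The table had 73622 genes and 2 empty lines.

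Stages and replicate numbers came from the sample titles. Genes with a mean of at least 1 FPKM were tested by a two-sided quasi-likelihood test (glmQLFTest) in edgeR 4.0.16 under R 4.3.3, after TMM scaling; p-values were adjusted by Benjamini-Hochberg over those genes. SEs are the log2 change divided by the square root of F. The script was checked on simulated counts. Alternatives used DESeq2 1.42.0, limma 3.58.1, other scalings and filters, a replicate block, and each library left out. Lists, such as chitinases, were matched by Swiss-Prot description; a list for tracheary element differentiation-related proteins matched 0 genes. The members, lists and tests were chosen with earlier results of these data known. Named were up to 4 tested members of each description with the highest mean FPKM, members called at least 2-fold, the 2 nearest on each side of the limit, and the 2 most abundant genes of each list; silent members and neighbours were added after their values were seen. Depth limits low genes; the floor of 3 reads covers counting error only, while SEs, 95% intervals and p-values rest on the spread between these libraries.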

Additional observations from a re-analysis of the deposited data

How the results depend on the processing

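Of the 21 tested members, direction and call held for all 21 without a filter, for 20 under upper quartile scaling, and for 14 with library totals alone. Members that rose numbered 3 by limma on log2(FPKM + 1) and 3 with a pseudocount of 0.1, and 1 fell in each of these and with library totals alone. With a library left out 1 to 8 rose and 0 to 1 fell. Among all genes tested, 2879 were called higher and 7730 lower with library totals alone, 2704 and 8856 by limma on log2(FPKM + 1), and 2354 and 7523 with a pseudocount of 0.1. By DESeq2, 6432 were higher and 4855 lower. With a library left out, 1491 to 6039 were higher and 821 to 5395 lower. Primary wall CesA genes that rose numbered 3, 3 and 2 with library totals alone, by limma and with a pseudocount of 0.1, with 1 lower in each limma fit; endoglucanases 2, 1 and 1, with 1 lower with totals alone and by limma on log2(FPKM + 1); STELLO and KOBITO genes 0, 0 and 0. The last group had 1 that rose under upper quartile scaling and 1 at a mean FPKM of at least 5. Sucrose synthases that fell numbered 5 with library totals alone, by DESeq2 and by limma on log2(FPKM + 1). DESeq2 called 2 of the chitinases without "-like" higher and 3 lower, and 0 were higher at a mean FPKM of at least 5. Without a filter 1 secondary wall CesA gene rose. With a library left out the higher counts ran from 1 to 10 for primary wall CesA, 1 to 4 for endoglucanases, 0 to 3 for STELLO and KOBITO, 1 to 2 for sucrose synthases and 0 to 2 for chitinases, and the lower counts from 0 to 1 for endoglucanases, 0 to 4 for sucrose synthases and 0 to 2 for chitinases. Members that did not pass changed sign with library totals alone, by limma on log2(FPKM + 1) and with a pseudocount of 0.1: Gh_A02G060200 to −0.20, −0.18 and −0.18 (and −0.01 at a mean FPKM of at least 5), Gh_A07G199400 to −0.06, −0.09 and −0.10, Gh_A11G046100 to −0.17, −0.17 and −0.18, and Gh_D02G064800 to −0.18, −0.17 and −0.18; the KOBITO gene Gh_D13G014500 did so too, to −0.09 in each. With a library left out, log2 changes ran from −0.04 to 0.26 for Gh_A02G060200, −0.08 to 0.39 for Gh_A07G199400, −0.43 to 0.04 for Gh_A11G237800, −0.57 to 0.10 for Gh_A12G106500, −0.01 to 0.23 for Gh_D02G064800, −0.39 to 0.00 for Gh_D12G106300 and −0.23 to 0.00 for the CesA4 gene Gh_A08G054700. Among the 6 members that rose, the lowest log2 change over the 14 alternatives was 0.79 for Gh_D12G031600, 0.26 for Gh_D10G192300, 0.36 for Gh_D12G199700, 0.54 for Gh_D11G239500, 0.78 for Gh_A11G212800 and 0.38 for Gh_A05G221300. The cause of these shifts was not tested.

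The labels do not say whether a replicate number shared by the stages marks a shared plant or day. The correlations of same-numbered libraries' deviations from their stage means were −0.26, 0.29 and 0.06 for numbers 1, 2 and 3. Libraries with unlike numbers gave −0.32 to 0.22. With 3 libraries per stage these values cannot decide whether the libraries were paired. A fit with the replicate block also gave 6 members that rose and 0 that fell, and 5034 genes higher and 3937 lower; it added Gh_D10G004900 (adjusted p = 0.0415) and dropped Gh_D10G192300 (0.0571).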

Other observations

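The GO column of the table was filled unevenly between the subgenomes: 61.8% of genes on A chromosomes and 24.4% of genes on D chromosomes carried a term. Of the 37 COBRA and COBRA-like genes, 22 carried the term for cellulose microfibril organization. The NR description named COBRA or a chitinase-like protein for 39 of the 52 members. It named neither for any of the 9 CSI genes, whose NR descriptions read uncharacterized, hypothetical or U-box domain proteins.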
